A study of Mus musculus with 4 samples.

Results

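The 10 genes described here encode transcription factors and related nuclear proteins of the immediate early response: *Fos*, *Fosb*, *Jun*, *Junb*, *Atf3*, *Egr1*, *Egr2*, *Egr3*, *Nr4a1* and *Ier2*. They were taken as a list of gene names, and all 10 were found among the 15298 genes measured. RNA of mouse peritoneal macrophages was sequenced in 4 libraries from female BALB/c mice that were 6 weeks old. The cells were sorted as CD11b+ F4/80+ Ly6G-. Mice of the MCS condition received microcurrent stimulation of 300 µA at 400 Hz for 15 min through pads on the abdomen and back under isoflurane, and mice of the control condition went through the same procedure with no current. Macrophages were taken at ZT2 (zeitgeber time, hours after lights on), directly after stimulation ended, or at ZT14, 12 h later. There was 1 library per condition and so no replicate check of any value, and the sources used here do not give how many mice went into each. A difference between ZT2 and ZT14 holds both the time of day and the time since anaesthesia and handling, which cannot be told apart in this design. The comparisons ask how far the immediate early genes differed with current directly after stimulation, how far they differed 12 h later, and how far ZT2 differed from ZT14 with and without current.

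Immediate early genes are transcribed within minutes of a stimulus without the need for new protein, because the factors that switch them on, such as the serum response factor SRF with its ternary complex partners and the cAMP response element binding protein CREB, are already present and are activated by kinases. FOS and JUN family proteins pair to form the factor AP-1, ATF3 pairs with JUN proteins, the EGR proteins are zinc finger factors, NR4A1 is an orphan nuclear receptor, and IER2 is a small nuclear protein. Their transcripts are short-lived, and messenger RNA decay proteins and phosphatases that are induced along with them help to end the response. In macrophages these genes respond to growth factors, microbial products and adhesion, and also to tissue handling and cell isolation.

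The promoters of 7 of the 10 genes were matched in RefSeq sequences on the mouse build GRCm38, and 4 are shown as examples. The genes are *Egr2*, lower with MCS at ZT14, and *Nr4a1*, higher in control at ZT14 than in control at ZT2. The others are *Atf3*, higher with MCS at ZT14, and *Fos*, the most even of the 10 over the libraries. These traits overlap: *Nr4a1* was also lower with MCS at ZT14, and *Egr2* and *Atf3* were also higher in control at ZT14 than at ZT2. Each sequence is the 250 bases before the annotated start of transcription, written 5′ to 3′ on the strand of the gene. They lie at chr10:67537619-67537868 on the plus strand for *Egr2*, at chr15:101266596-101266845 on the plus strand for *Nr4a1*, at chr1:191183334-191183583 on the minus strand for *Atf3* and at chr12:85473640-85473889 on the plus strand for *Fos*. None of these bases lies in a GENCODE exon except for 7 of the *Atf3* window, and the *Egr2* window belongs to 1 of 5 start sites listed for that gene. Capitals mark matches to a CArG box (bound by SRF), the cAMP response element TGACGTCA or its core TGACG, an AP-1 site (TGANTCA), an EGR site (GCGNGGGCG) or a TATA box (TATAAA), searched on both strands. The full cAMP response element contains its core, so the core was counted in both.
Egr2: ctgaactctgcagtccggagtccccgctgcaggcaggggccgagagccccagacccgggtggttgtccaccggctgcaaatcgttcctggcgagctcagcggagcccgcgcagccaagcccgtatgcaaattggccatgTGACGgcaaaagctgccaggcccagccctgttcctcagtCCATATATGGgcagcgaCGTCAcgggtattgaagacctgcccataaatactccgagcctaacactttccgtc
Nr4a1: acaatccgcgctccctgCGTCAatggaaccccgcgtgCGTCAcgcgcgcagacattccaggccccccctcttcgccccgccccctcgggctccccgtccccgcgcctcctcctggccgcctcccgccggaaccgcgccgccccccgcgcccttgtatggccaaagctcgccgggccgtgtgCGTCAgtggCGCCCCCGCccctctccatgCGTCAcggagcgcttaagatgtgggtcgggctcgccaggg
Atf3: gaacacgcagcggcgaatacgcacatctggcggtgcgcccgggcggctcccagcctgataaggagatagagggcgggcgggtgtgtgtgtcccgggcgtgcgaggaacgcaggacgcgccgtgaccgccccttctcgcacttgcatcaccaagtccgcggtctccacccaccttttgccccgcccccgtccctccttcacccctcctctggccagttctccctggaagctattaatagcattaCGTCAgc
Fos: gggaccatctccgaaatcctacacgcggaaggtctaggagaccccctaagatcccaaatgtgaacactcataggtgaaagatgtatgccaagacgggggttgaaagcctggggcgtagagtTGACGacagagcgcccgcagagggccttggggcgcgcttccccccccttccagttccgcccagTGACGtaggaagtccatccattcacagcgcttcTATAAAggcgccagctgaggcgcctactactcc

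The *Egr2* window holds a CArG box at -72 to -63 from the start and cores of the cAMP response element at -111 to -107 and at -55 to -51. The *Nr4a1* window holds 4 such cores and an EGR site, the *Atf3* window a core at -7 to -3, and the *Fos* window 2 cores and a TATA box at -33 to -28. Among the 7 windows, the core was found in 6, all except that of *Jun*, an EGR site in 2 (*Fosb* and *Nr4a1*), a CArG box in 1, a TATA box in 1, and a full cAMP response element or an AP-1 site in 0. Of 32851 windows of the same length, 17.8% hold the core, 4.7% an EGR site, 1.47% a CArG box, 12.4% a TATA box, 1.55% the full cAMP response element and 6.75% an AP-1 site. These matches describe letters in a window of 250 bases. Variant spellings and sites farther upstream were not counted, and binding was not measured.

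The values deposited as CPM, counts scaled by the authors to a common library size, are whole reads times a factor of each library, so that the reads could be recovered. They totaled between 8365590 and 9953243 per library, and 1 read equaled between 0.102 and 0.116 CPM. The 8 markers of peritoneal macrophages, *Adgre1*, *Itgam*, *Csf1r*, *Lyz2*, *Cd68*, *Gata6*, *Icam2* and *Timd4*, were present in all 4 libraries and summed to between 25224 and 27878 CPM. Markers of cells outside the sort were also present. The 5 mast cell markers summed to between 947 and 2231 CPM and the 4 B cell markers to between 863 and 1218 CPM. Of 6 neutrophil markers, 5 were in the table, and they summed to 69.1 CPM in MCS at ZT2 and to between 11.2 and 17.8 CPM elsewhere. Of 7 red blood cell genes, 6 were in the table, and they summed to 36.7 CPM in MCS at ZT2, 112 CPM in MCS at ZT14 and at most 3.23 CPM in the control libraries. *Camp*, a defining gene of neutrophil granules, was at 0 in MCS at ZT14, and *Hba-a2*, *Hbb-b2* and *Hbb-bt* were at 0 in at least 1 library. In such bulk libraries, fewer cells of a type and less RNA per cell cannot be told apart.

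Per kilobase of the longest coding transcript, *Junb*, the AP-1 subunit that pairs with FOS proteins, was the most abundant of the 10, with a mean level of 98.2 CPM per kilobase over the 4 libraries. *Ier2* followed with 38.3, *Jun* with 13.8, *Fos* with 9.97, *Atf3* with 8.36, *Nr4a1* with 5.19, *Egr1* with 3.86, *Egr2* with 2.30, *Egr3* with 1.69 and *Fosb* with 0.852 CPM per kilobase. *Junb* held between 45.3% and 51.9% of the CPM summed over the 10 genes, so that sums over the set mostly follow *Junb*. *Junb*, *Ier2* and *Jun* held their order in each library, and the ranges of *Junb* (65.0 to 127 CPM per kilobase), *Ier2* (29.6 to 45.6) and *Jun* (10.5 to 17.8) did not overlap. From *Jun* downward, the range of each gene over the 4 libraries overlapped that of its neighbour in this order. In MCS at ZT14, *Atf3* with 12.6 CPM per kilobase stood above *Fos* with 9.51, and *Fosb* with 0.676 above *Egr3* with 0.597. In control at ZT14, *Nr4a1* with 8.99 CPM per kilobase stood above *Atf3* with 8.19.

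All 10 genes had a log2 mean above 0 in every comparison and passed the filter on low values. Of the FOS proteins, the AP-1 subunits that bind DNA only as dimers with a JUN protein, *Fos* was at 18.7 CPM without and 24.1 CPM with MCS at ZT2, and at 21.2 CPM without and 20.0 CPM with MCS at ZT14. *Fosb*, the least abundant, was at 1.96 and 4.52 CPM at ZT2 and at 3.84 and 2.56 CPM at ZT14, in the same order, from between 17 and 39 reads. Both FOS genes were lowest in control at ZT2 and highest in MCS at ZT2. *Jun*, which can also pair with itself, was at 33.5 and 39.7 CPM at ZT2 and at 56.8 and 45.7 CPM at ZT14. *Junb* was at 118 and 152 CPM at ZT2 and at 230.2 and 211 CPM at ZT14. Both JUN genes were thus lowest in control at ZT2 and highest in control at ZT14. *Atf3*, a stress-induced member of the ATF/CREB family that represses many inflammatory genes in macrophages, was at 11.2 and 13.9 CPM at ZT2 and at 16.3 and 24.9 CPM at ZT14, its highest value being in MCS at ZT14.

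*Egr1*, the EGR factor most widely induced by serum and growth factors, was at 11.2 CPM without and 12.2 CPM with MCS at ZT2, and at 32.4 CPM without and 13.4 CPM with MCS at ZT14. Control at ZT14 stood above the other 3 libraries, which lay close together. *Egr2*, known also for its role in myelination and in macrophage and lymphocyte differentiation, was at 6.01 and 7.42 CPM at ZT2 and at 9.56 and 4.29 CPM at ZT14, in the same order. *Egr3*, itself a target of EGR1 in several cell types, was at 6.81 and 6.50 CPM at ZT2 and at 11.0 and 2.35 CPM at ZT14. For *Egr2* and *Egr3*, control at ZT14 was the highest library and MCS at ZT14 the lowest, and *Egr3* had the widest range of the 10 genes, 4.67-fold. *Nr4a1* (Nur77), which restrains inflammatory gene expression in macrophages, was at 7.39 and 9.74 CPM at ZT2 and at 23.0 and 12.9 CPM at ZT14, with control at ZT14 again the highest. *Ier2* was at 45.0 and 53.2 CPM at ZT2 and at 65.7 and 69.4 CPM at ZT14, and *Fos* had the narrowest range, 1.29-fold.

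**Figure D1:**
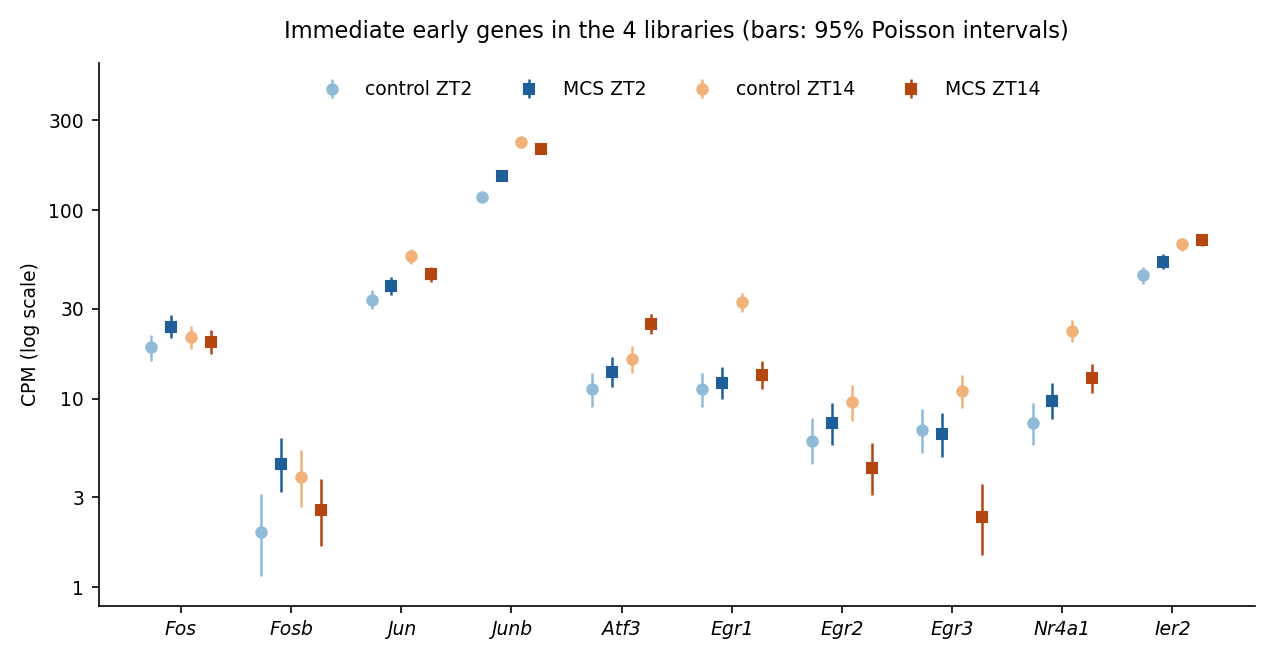
CPM of each of the 10 genes in the 4 libraries on a logarithmic axis, with circles for control, squares for MCS and bars for 95% Poisson intervals of the reads. *Egr1*, *Egr2*, *Egr3* and *Nr4a1* stand highest in control at ZT14, where *Egr3* has 11.0 CPM against 2.35 CPM in MCS, while *Atf3* is highest in MCS at ZT14 with 24.9 CPM.

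Directly after stimulation, at ZT2, MCS was above control for 9 of the 10 genes, all except *Egr3*, and the differences were small. The median log2 ratio of MCS to control, computed after adding 0.1 CPM to each value, was 0.31 over the 10 genes and 0.00 over the 12612 genes with a log2 mean of the pair above 0, of which 50.6% were above 0. A gene was counted as changed where its log2 ratio was beyond 1 and the log2 mean of its pair was above 0. By this rule 1 gene, *Fosb*, was changed, being 2.24-fold higher, where 2.21% of all genes were changed and 1.44% were changed upward. Its log2 ratio was 1.16, with a 95% interval of 0.35 to 2.12 and 39 reads against 17, and was 0.90, short of the threshold, with 1 CPM added in place of 0.1. These intervals, exact and binomial by the method of Clopper and Pearson, cover counting error only, and compare libraries rather than groups of mice.

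The other AP-1 genes were higher with MCS at ZT2 by less than a log2 ratio of 1. The log2 ratio was 0.37 for *Fos* (interval 0.06 to 0.67), 0.24 for *Jun* (0.01 to 0.48) and 0.37 for *Junb* (0.25 to 0.49). *Ier2* had a log2 ratio of 0.24 (0.04 to 0.44). These 4 genes and *Fosb* were the 5 whose interval excluded no change, all of them higher, where 11.5% of all genes were higher by this measure. For the other 5 genes the interval included no change. The log2 ratio was 0.31 for *Atf3* (-0.08 to 0.71), 0.39 for *Nr4a1* (-0.09 to 0.89), 0.30 for *Egr2* (-0.24 to 0.86), 0.12 for *Egr1* (-0.29 to 0.53) and -0.07 for *Egr3* (-0.62 to 0.48). At this depth, differences of that size were not detectable for genes with 52 to 120 reads. When the common dispersion of a count model over the 4 libraries was added to the counting error, an interval chosen after the data were seen, only *Fosb* (0.19 to 2.17) excluded no change, where 2.51% of all genes did so. The model had terms for time and MCS and no replicates. Its dispersion thus holds any difference of the MCS effect between times and does not measure the spread between mice.

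Summed over the 4 AP-1 genes, the level at ZT2 was 220.3 CPM with MCS against 172 CPM in control, at a log2 ratio of 0.36 (0.26 to 0.46). Without *Junb*, the other 9 genes summed to 142 and 171 CPM, a log2 ratio of 0.27 (0.16 to 0.38), so the direction of the sum did not rest on *Junb*. The 3 EGR genes summed to 24.0 and 26.1 CPM, with an interval of -0.16 to 0.40 for the log2 ratio of 0.12. Markers of other cells differed in the same pair of libraries: neutrophil markers by a log2 ratio of 2.09, mast cell markers by 0.30, red blood cell genes by 3.46, *Ccr3*, an eosinophil marker, by 1.18 and B cell markers by -0.06. Their part in the values of the immediate early genes was not tested. The sum of the macrophage markers had a log2 ratio of -0.05, with *Adgre1* at 1086 against 1327 CPM and *Gata6* at 80.9 against 69.1 CPM in MCS and control.

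At ZT14, 12 h after stimulation, the EGR genes and *Nr4a1* were lower with MCS, *Atf3* was higher, and the AP-1 genes had log2 ratios between -0.57 and -0.08. The 3 genes counted as changed were *Egr1*, *Egr2* and *Egr3*, all lower with MCS, where 3.40% of all genes were changed and 1.57% were changed downward. The median log2 ratio over the 10 genes was -0.44, against 0.00 over 12368 genes. With MCS, 8 of the 10 genes were lower, and 49.6% of all genes were.

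*Egr3* differed most, with 23 reads in MCS against 100 in control and a log2 ratio of -2.18 (-2.95 to -1.56). Its interval lay entirely beyond a log2 ratio of 1, as it did for 0.550% of all genes and for no other of the 10. *Egr1* had 131 reads against 295, a log2 ratio of -1.27 (-1.58 to -0.97), and *Egr2* 42 reads against 87, a log2 ratio of -1.14 (-1.72 to -0.61), which was -0.9956 and no longer counted as changed with 1 CPM added in place of 0.1. Summed, the EGR genes reached 20.0 CPM with MCS against 52.9 CPM in control, at a log2 ratio of -1.40 (-1.65 to -1.16). The sum in MCS was near those at ZT2, 24.0 CPM without and 26.1 CPM with MCS. *Egr1* held most of the sum in control at ZT14, and for *Egr2* and *Egr3* the MCS library at ZT14 was also below both libraries at ZT2. *Nr4a1* had a log2 ratio of -0.83 (-1.16 to -0.51), short of the threshold of 1. With its relatives *Nr4a2* and *Nr4a3*, it summed to 15.1 CPM with MCS against 28.0 CPM in control, at a log2 ratio of -0.88 (-1.19 to -0.59).

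*Atf3* was the only one of the 10 genes that was higher with MCS at ZT14 with an interval that excluded no change, at a log2 ratio of 0.61 (0.32 to 0.92), and 18.7% of all genes were higher by this measure. Lower by it were 6 genes, *Egr1*, *Egr2*, *Egr3*, *Nr4a1*, *Jun* and *Junb*, where 18.9% of all genes were. *Jun* had a log2 ratio of -0.31 (-0.50 to -0.13) and *Junb* of -0.13 (-0.22 to -0.04). *Fosb*, with 25 reads against 35, had a log2 ratio of -0.57 (-1.39 to 0.19), *Fos* of -0.08 (-0.38 to 0.21) and *Ier2* of 0.08 (-0.08 to 0.24), so no difference was detectable for these 3 at this depth. With the common dispersion added, the intervals of *Egr1* (-1.91 to -0.64), *Egr2* (-1.92 to -0.38), *Egr3* (-3.06 to -1.34) and *Nr4a1* (-1.48 to -0.19) lay below no change, where those of 2.95% of all genes did, and that of *Atf3* ran from -0.02 to 1.25.

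Summed over all 10 genes, the level at ZT14 was 406 CPM with MCS against 469.9 CPM in control, at a log2 ratio of -0.21 (-0.27 to -0.15). The sum is dominated by *Junb* and stands closer to no change than the EGR genes do. In this pair of libraries the markers of B cells differed by a log2 ratio of -0.50, those of mast cells by -0.31, those of neutrophils by -0.66, those of fibroblasts by 1.21, and red blood cell genes by 6.30. The single eosinophil marker in the table, *Ccr3*, was at 33.8 CPM with MCS against 1.32 CPM in control. Their part in the lower EGR and *Nr4a1* values was not tested. The sum of the macrophage markers, most of it *Lyz2*, had a log2 ratio of 0.13, and single markers went both ways, with *Adgre1* at 1899.8 against 1361 CPM, *Gata6* at 117 against 89.0 CPM and *Cd68* at 215 against 299 CPM in MCS and control.

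**Figure D2:**
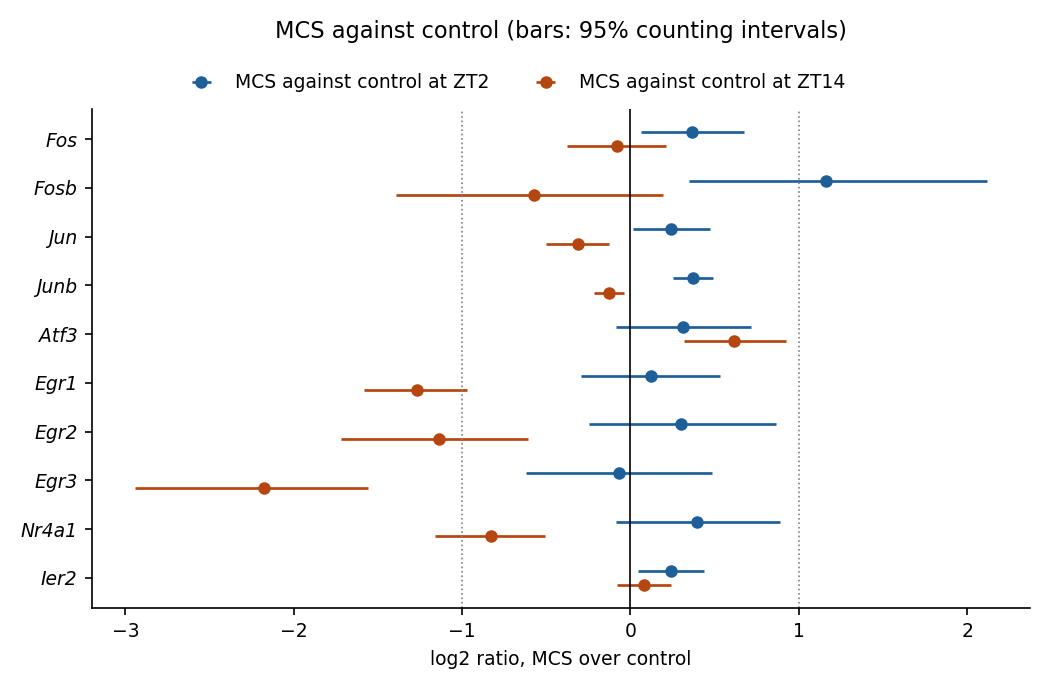
Log2 ratio of MCS to control for each of the 10 genes at ZT2 and at ZT14, with 95% counting intervals as bars and dotted lines at log2 ratios of -1 and 1. At ZT2 the points lie between -0.07 and 1.16, and at ZT14 those of *Egr1*, *Egr2* and *Egr3* lie below -1.

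The MCS ratios at the 2 times come from different libraries and can be set against each other. The log2 ratio at ZT14 minus that at ZT2 was -2.13 for *Egr3* (95% interval from a normal approximation of counting error, -2.97 to -1.30), -1.76 for *Fosb* (-2.86 to -0.67), -1.45 for *Egr2* (-2.19 to -0.70), -1.39 for *Egr1* (-1.89 to -0.90) and -1.23 for *Nr4a1* (-1.79 to -0.66). It was smaller for the other AP-1 genes, at -0.56 for *Jun*, -0.50 for *Junb* and -0.45 for *Fos* (-0.86 to -0.04). For 8 of the 10 genes the interval lay below 0, where it did so for 18.8% of all genes. The exceptions were *Ier2*, at -0.16 (-0.41 to 0.09), and *Atf3*, at 0.30 (-0.18 to 0.79). With 1 library per condition, an interaction of MCS and time could not be tested over replicates. Counted by direction alone, 7 of the 10 genes were higher with MCS at ZT2 and lower with MCS at ZT14, as were 29.4% of all genes.

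In control mice, all 10 genes were lower at ZT2 than at ZT14. The median log2 ratio of ZT2 to ZT14 was -0.72, against 0.00 over 12465 genes, of which 50.5% were below 0. The 2 genes counted as changed were *Nr4a1* at -1.62 (-2.06 to -1.22) and *Egr1* at -1.52 (-1.88 to -1.20), where 3.61% of all genes were changed and 1.19% changed downward. For both, the interval lay entirely beyond a log2 ratio of 1, as it did for 0.826% of all genes. *Junb* was at -0.97 (-1.08 to -0.86), just short of the threshold, *Fosb* at -0.93 (-1.90 to -0.09) and *Jun* at -0.76 (-0.97 to -0.55). *Egr3* was at -0.68 (-1.18 to -0.21), *Egr2* at -0.66 (-1.19 to -0.16), *Ier2* at -0.54 (-0.73 to -0.36) and *Atf3* at -0.53 (-0.92 to -0.16). The interval excluded no change for 9 of the 10 genes, where 15.9% of all genes were lower by this measure, and the exception was *Fos*, at -0.18 (-0.49 to 0.13). With the common dispersion added it was below no change for 4, *Jun*, *Junb*, *Egr1* and *Nr4a1*, and for 2.36% of all genes.

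This comparison shares the control library at ZT14 with the MCS comparison at ZT14 and the control library at ZT2 with the MCS comparison at ZT2, so the 3 sets of ratios are not independent. Among the 4 libraries, control at ZT2 was the lowest for 8 of the 10 genes, all except *Egr2* and *Egr3*, and for 20.1% of all genes. Control at ZT14 was the highest for 6, *Jun*, *Junb*, *Egr1*, *Egr2*, *Egr3* and *Nr4a1*, and for 23.8% of all genes. Both held for 4 genes, *Jun*, *Junb*, *Egr1* and *Nr4a1*, and for 7.55% of all genes. MCS at ZT14 was the lowest for 2, *Egr2* and *Egr3*, and for 31.0% of all genes. Summed over all 10 genes, the control libraries held 259 and 469.9 CPM at the earlier and later time. In control, mast cell markers had a log2 ratio of ZT2 to ZT14 of 0.62, fibroblast markers of 1.90 and mesothelial markers of 1.60. The eosinophil marker was at 1.93, red blood cell genes at 1.23 and natural killer cell markers at 1.17, while B cell markers were at -0.29 and neutrophil markers at -0.14. Their part in these differences was not tested.

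In MCS mice, the 10 genes did not share a direction between ZT2 and ZT14. At ZT2, 4 genes were higher and 6 lower, where 50.6% of all genes were higher, and the median log2 ratio was -0.17. *Egr3* was the 1 gene counted as changed, at a log2 ratio of 1.43 (0.74 to 2.23), where 5.83% of all genes were changed and 3.96% changed upward. *Fosb*, at 0.80 (0.06 to 1.61), and *Egr2*, at 0.78 (0.21 to 1.39), were the other genes higher at ZT2 with an interval that excluded no change, as 21.9% of all genes were. *Atf3*, at -0.84 (-1.17 to -0.52), *Junb*, at -0.47 (-0.57 to -0.37), and *Ier2*, at -0.38 (-0.56 to -0.21), were lower by this measure, as were 22.2% of all genes. *Fos* was at 0.27 (-0.02 to 0.56), *Egr1* at -0.14 (-0.52 to 0.24), *Jun* at -0.20 (-0.41 to 0.00) and *Nr4a1* at -0.40 (-0.82 to 0.01). With the common dispersion added, the interval excluded no change for *Egr3* and *Atf3*, and for 11.5% of all genes. In this pair of libraries neutrophil markers had a log2 ratio of 2.61, natural killer cell markers of 1.33, mesothelial markers of 1.28 and mast cell markers of 1.24, with fibroblast markers also higher at ZT2, while red blood cell genes were at -1.60 and the eosinophil marker at -1.47. Their part in these values was not tested.

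**Figure D3:**
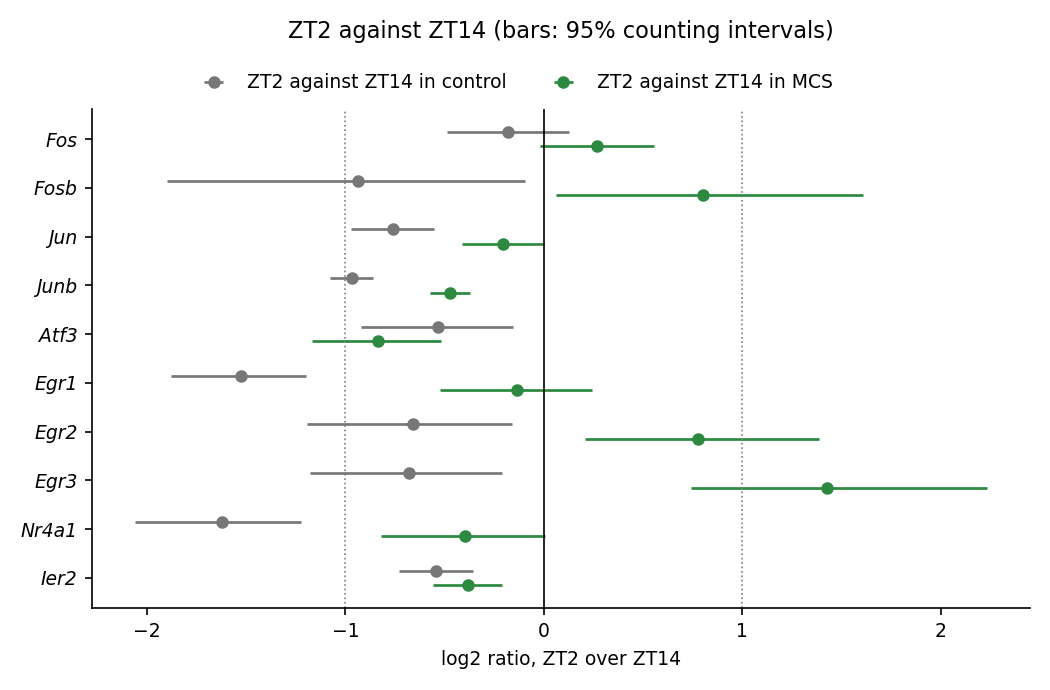
Log2 ratio of ZT2 to ZT14 for each of the 10 genes in control and in MCS libraries, with 95% counting intervals as bars and dotted lines at log2 ratios of -1 and 1. In control the points lie between -1.62 and -0.18, and in MCS between -0.84 and 1.43.

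A count test over all 4 libraries, edgeR's quasi-likelihood test with additive terms for time and MCS, takes the effect of MCS to be the same at both times and leaves 1 residual degree of freedom. For MCS it called 24 of 12404 genes (0.193%) at an adjusted p under 0.05 and 0 of the 10 genes. An unadjusted p under 0.05 was reached by 304 genes and by *Egr1*, *Egr3* and *Atf3*. DESeq2 called 5 genes and 0 of the 10, with 0 of the 10 at an unadjusted p under 0.05. For time, edgeR called 295 genes, 2.38%, of which 116, 0.935% of those tested, were lower at ZT2. Among them were 2 of the 10 genes, *Junb*, with a log2 difference of -0.71 between ZT2 and ZT14 and an adjusted p of 0.0176, and *Nr4a1*, with -1.01 and an adjusted p of 0.0185. *Egr1* had an adjusted p of 0.0649 in the same edgeR test. For time, DESeq2 gave an adjusted p to 10720 genes, and *Fosb* was not among them. It called 81 genes and 0 of the 10, with an adjusted p of 0.0992 for *Junb*. An unadjusted p under 0.05 was reached by 430 genes, 3.47%, and by 3 of the 10.

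Other genes of the response were described by lists. Of 20 other early, AP-1 and NR4A factors, 18 were measured, and the median log2 ratio of MCS to control was 0.04 at ZT2 and -0.05 at ZT14, against 0.31 and -0.44 for the 10 genes. *Klf2*, a zinc finger factor that restrains macrophage activation, was the most abundant of them, with 631 and 645 CPM at ZT2 and 976 and 827 CPM at ZT14. *Maff*, a small MAF factor, was changed at ZT2, with 4.18 CPM against 1.85 CPM in control. *Nr4a2*, a relative of *Nr4a1*, was changed at ZT14, with 1.43 CPM against 3.52 CPM in control and a log2 ratio of -1.24 (-2.32 to -0.35). *Jdp2*, a JUN dimerization protein that represses AP-1, was higher at ZT2 than at ZT14, with 23.3 against 8.79 CPM in control and 28.5 against 12.8 CPM in MCS, opposite to the direction of *Jun* and *Junb* in control. *Nr4a3* was counted as changed between times in MCS only, with 2.44 against 0.818 CPM and a log2 ratio of 1.47 (0.34 to 2.96). In control it was also higher at ZT2, with 2.77 against 1.54 CPM and a log2 ratio of 0.81 (-0.16 to 1.91). The difference of MCS from control was not tested.

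Of 23 listed names of kinases and factors that activate immediate early transcription, 2 of them synonyms of others, 21 were measured. None was counted as changed in any of the 4 comparisons. Over all genes, 2.21% and 3.40% were changed with MCS at ZT2 and ZT14. Between times, 3.61% were in control and 5.83% in MCS, so a list of 21 can hold none at such shares. The median log2 ratio of MCS to control over the 21 activators was 0.05 at ZT2 and -0.12 at ZT14. *Mef2a*, a factor bound at several early promoters and the most abundant of the list, had between 220.0 and 282 CPM. All 24 listed inhibitors were measured, 21 with a log2 mean above 0, among them phosphatases of MAP kinases, EGR corepressors and mRNA decay proteins. *Dusp4*, a MAP kinase phosphatase, was the only one counted as changed, with 2.20 CPM against 0.924 CPM in control at ZT2, and its interval (-0.0040 to 2.66) just included no change. *Zfp36l2*, which binds AU-rich messenger RNAs for decay, was the most abundant, with between 438 and 511 CPM. The median log2 ratio of MCS to control over these 21 was -0.07 at ZT2 and -0.11 at ZT14. At each time 9 of them were higher and 12 lower with MCS. A pair of inhibitors was picked after their values were seen, and does not stand for the list. *Nab2*, an EGR-induced corepressor of EGR factors, was at 17.3 CPM without and 25.4 CPM with MCS at ZT2 and at 28.7 and 19.6 CPM at ZT14. Its log2 ratio was 0.55 (0.25 to 0.86) at ZT2 and -0.54 (-0.82 to -0.27) at ZT14. *Dusp1*, a phosphatase of stress kinases, was at 139 and 124 CPM at ZT2 and at 123 and 224 CPM at ZT14. The later pair had a log2 ratio of 0.87 (0.77 to 0.98).

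Of 26 listed names of other early genes that do not encode transcription factors, 2 of them synonyms of others, 22 were measured. The urokinase receptor gene *Plaur* was the most abundant, with 85.6 and 89.8 CPM at ZT2 and 96.6 CPM in control at ZT14. At ZT2, *Il1b*, which encodes interleukin-1 beta, was at 7.08 CPM with MCS against 1.73 CPM in control. The chemokine gene *Cxcl1* was at 3.48 against 1.15 CPM. They were the 2 changed genes of 14 with a log2 mean above 0, where 2.21% of all genes were changed. At ZT14, *Cxcl1* was at 3.68 CPM with MCS against 8.13 CPM in control, and *Tnf* at 2.66 against 6.48 CPM, both changed downward, while *Gadd45g* was counted as changed upward with 2.35 against 1.10 CPM and an interval (-0.03 to 2.33) that included no change. In control, *Cxcl1*, *Cxcl2*, *Il1b*, *Tnf* and *Ccl3* were lower at ZT2 than at ZT14 and *Rgs1* and *Gadd45g* were higher. These were 7 changed genes of 16, where 3.61% of all genes were changed. Several rest on few reads, such as *Ccl3* with 0.462 against 1.76 CPM (interval -3.97 to -0.30). *Gadd45g* and *Ccl3* were named after their values were seen. Of these genes, *Cxcl2* ranged from 3.81 to 10.9 CPM and *Rgs1* from 1.76 to 4.97 CPM. In MCS, *Il1b* was higher at ZT2 and *Hbegf*, also named after its values were seen, was lower, with an interval (-2.79 to 0.31) that included no change. *Il1b* and *Cxcl1* are also made by neutrophils, whose markers were highest in MCS at ZT2, and the part of those cells was not tested.

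All 13 listed heat shock genes, which respond to handling and dissociation of cells, were measured. None was changed with MCS at either time, where 2.21% of all genes were at ZT2 and 3.40% at ZT14. Between times, 3.61% of all genes were changed in control and 5.83% in MCS. The median log2 ratio of MCS to control over the heat shock genes was 0.04 at ZT2 and 0.09 at ZT14. *Hspa8*, a constitutive chaperone and the most abundant, had between 1082 and 1621 CPM. *Hspa1a* and *Hspa1b*, stress-inducible chaperones with nearly the same coding sequence whose reads can be exchanged between them in counting, were changed between times: both were lower at ZT2 in control and in MCS. *Hspa1a* was at 3.46 and 4.87 CPM at ZT2 and at 12.1 and 12.9 CPM at ZT14, in control and MCS. *Hspa1b* was at 3.35 and 4.06 CPM at ZT2 and at 13.6 and 8.49 CPM at ZT14. All 10 immediate early genes took this direction in control. In MCS, 6 of them did, and *Fos*, *Fosb*, *Egr2* and *Egr3* were higher at ZT2. The median log2 ratio of ZT2 to ZT14 over the heat shock genes was -0.25 in control and -0.38 in MCS. The part of the heat shock genes in the difference of the immediate early genes between times was not tested.

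**Figure D4:**
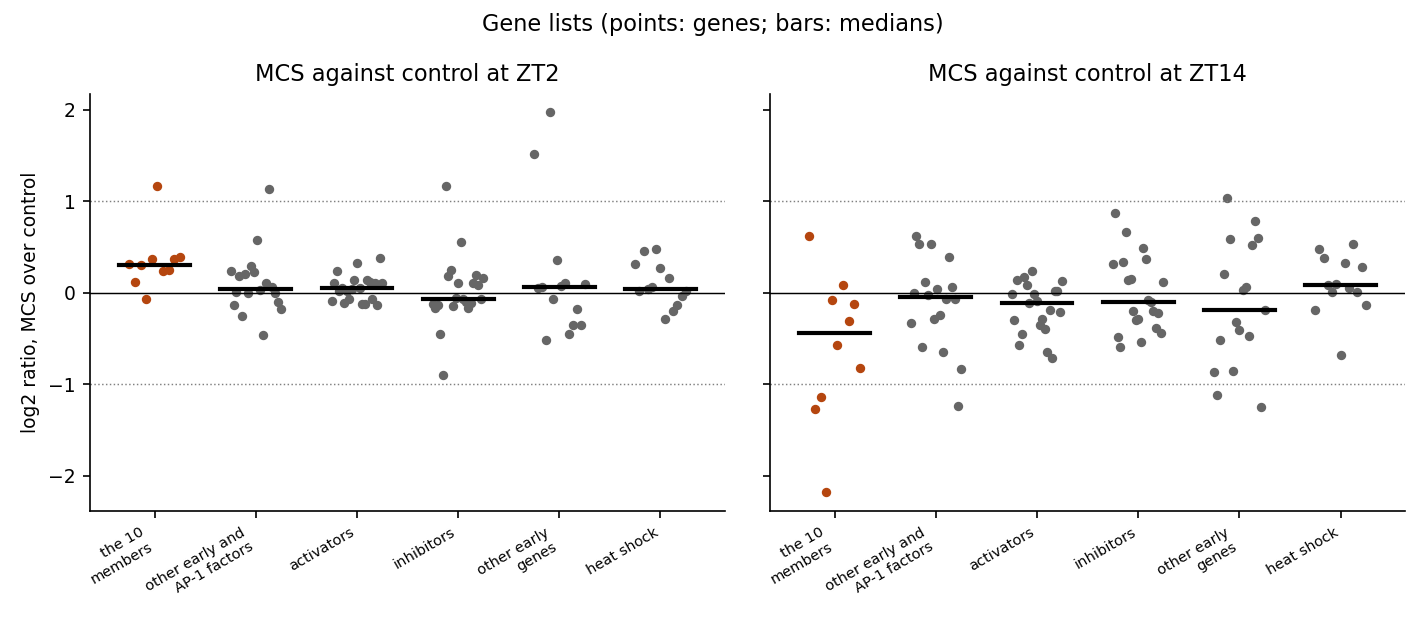
Log2 ratio of MCS to control for single genes (points) of the 10 immediate early genes and 5 other lists, at ZT2 and at ZT14, with bars for the medians and dotted lines at -1 and 1. The median of the 10 genes was 0.31 at ZT2 and -0.44 at ZT14, and those of the activators were 0.05 and -0.12.

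The profile of the 10 genes over the 4 libraries was compared with that of each of 9209 genes with a log2 mean above 3, by the Euclidean distance of log2 values centred on their mean. Outside the 10, the genes nearest to their median profile were *Ldlrad3* (distance 0.0724), *Rbm38* (0.0960), *Sowahc* (0.0986), *Smagp* (0.101) and *Ahdc1* (0.108). *Ldlrad3* was at 15.5 and 19.4 CPM at ZT2 and at 27.4 and 20.2 CPM at ZT14, in control and MCS, and so was lowest in control at ZT2 and highest in control at ZT14. Of the 10 genes, *Jun* was nearest to their median profile (0.0934) and *Egr3* farthest (1.54). The distance is over 4 libraries only and describes likeness of levels.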

How the data were processed

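Per the labels, paired reads of 150 nt were processed by the authors with Trimmomatic 0.38 and then with RSEM 1.3.0 and Bowtie 2 on mm10 (GRCm38), and the deposited CPM were normalized by edgeR. Libraries were made from 200 ng of RNA with ribosomal RNA depletion and a directional kit. The annotation and strand setting of the counting are not given in the sources used here. Reads were recovered by dividing each CPM column by its step, which gave whole numbers, to a tolerance of 0.05 read, for 100% of values. Since RSEM gives estimates, any rounding by the authors is part of these reads.

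Log2 ratios were computed with 0.1 CPM added. No replicate test was possible. The count tests used edgeR 4.0.16 and DESeq2 1.42.0 (R 4.3.3) on genes of 40 or more reads over the libraries, with Benjamini-Hochberg adjustment. It ran over all genes tested, except that DESeq2 left 10720 of 12404 genes with an adjusted p for time. The scripts were tested on simulated Poisson counts with the same MCS effect at both times. Such counts hold no spread between mice and no effect that differs with time, so neither was checked. Ratios, intervals and figures used scipy 1.17.1, pandas 2.3.3, numpy 2.4.6 and matplotlib 3.10.9 in Python 3.11.15. Transcript lengths came from GENCODE and promoters from RefSeq, both on GRCm38.

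The members and lists were chosen with earlier results of these data known. Named genes were the 10 members, the changed genes of each list (at most the 5 most abundant) with its most abundant gene, and the 5 genes nearest in profile, with exceptions stated. The 11 marker lists covered macrophages and other cell types, and which of these the sort gate admits was not examined. The markers of T cells, natural killer cells and dendritic cells each summed to at most 25.4 CPM per library.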

Additional observations from a re-analysis of the deposited data

Results flagged for a closer look

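*Jun* and *Junb* were singled out because their MCS effects at the 2 times had opposite directions, with both counting intervals excluding no change. The log2 ratio of MCS to control was 0.24 at ZT2 and -0.31 at ZT14 for *Jun*, and 0.37 at ZT2 and -0.13 at ZT14 for *Junb*. With the common dispersion added to counting error, all 4 intervals included no change, running from -0.36 to 0.85 at ZT2 and from -0.90 to 0.28 at ZT14 for *Jun*, and from -0.20 to 0.94 and from -0.70 to 0.44 for *Junb*. With 1 library per condition, the difference was not tested over replicates.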

How the results depend on the processing

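The authors' scaling equalled edgeR's TMM, and a pseudocount cannot turn a sign. Under the other 2 rescalings, 80 of 80 log2 ratios of single genes kept their sign, with shifts of at most 0.0213. The number of the 10 genes counted as changed with MCS at ZT2 went from 1 to 0 with a pseudocount of 1 CPM, with a log2 mean above 3 or with a log2 ratio beyond 2 (101, 26 and 37 of all genes, from 279). At ZT14 it went from 3 to 2 with a pseudocount of 1 CPM, where *Egr2* was at -0.9956, to 1 with a log2 mean above 3 and to 1 with a log2 ratio beyond 2 (174, 81 and 47 of all genes, from 421). Between times it went from 2 to 0 in control with a log2 ratio beyond 2 (47 of all genes, from 450), and from 1 to 0 in MCS with that threshold and with a log2 mean above 3 (128 and 197 of all genes, from 731). A stricter filter or threshold admits fewer genes by its construction. The common dispersion was 0.0196, which edgeR gives as a biological coefficient of variation of 0.140, though no replicates entered the estimate. Adding it to counting error was a choice made after the data were seen. The intervals that excluded no change then went from 5 to 1 and from 7 to 4 for MCS at ZT2 and ZT14. Between times they went from 9 to 4 in control and from 6 to 2 in MCS. In the count test for time, DESeq2 called 0 of the 10 genes where edgeR called 2, and edgeR without the filter on low counts called 3 and 380 of 15298 genes, with an adjusted p of 0.0096 for *Egr1*. For MCS it then called 43 genes and 0 of the 10, with an adjusted p of 0.0924 for *Egr3*. The cause of these differences was not tested. No paired analysis was possible because the labels number no replicates, and time is a term in the count test for MCS. No library could be left out. Precision is limited for genes such as *Fosb*, with as few as 17 reads in a library.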
